A study of Mus musculus with 12 samples.

Results

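The genes of the creatine kinase system and myoglobin were examined in whole hearts of MHC-CELFΔ mice. They comprised all 9 genes named for this purpose, which are the 4 creatine kinases (Ckm, Ckb, Ckmt1 and Ckmt2), the adenylate kinase Ak1, the creatine transporter Slc6a8, the creatine synthesis enzymes Gatm and Gamt, and myoglobin (Mb). They were found by gene symbol among 19014 symbols on a bead array, and were measured by 12 of its 45281 probe IDs. IDs that carried identical values on every array were merged, which left 9 features for these genes among 30854 in all, so that each gene rested on a single measurement. Probe sequences were not used here, so cross-hybridization between the related creatine kinases was not tested. All 9 features were tested, since no filter on dim signal was applied.

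All 12 hearts came from female FVB/N mice aged 3 weeks, and each array held a separate heart sample. MHC-CELFΔ mice carry a transgene for a dominant negative CELF protein that is confined to the nucleus and interferes with splicing by the CELF family of RNA-binding proteins. The α-myosin heavy chain promoter restricts its expression to heart muscle after birth. The transgenic hearts, 3 per group, came from the mild line (MHC-CELFΔ-574) and the severe line (MHC-CELFΔ-10), each of which is a single transgenic line. Wild type littermates of each line (3 and 3) were the controls and carried no transgene. The 6 wild type hearts were pooled, so both lines were compared with the same controls. As the labels do not describe collection beyond the heart, p-values measure the spread between these samples.

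Creatine kinases pass a phosphate group between ATP and creatine, and phosphocreatine carries this energy from mitochondria to the myofibrils and ion pumps. The mitochondrial enzymes (Ckmt2 in striated muscle, Ckmt1 in many other tissues) charge creatine where ATP is made, and the cytosolic enzymes, built of M subunits (Ckm) or B subunits (Ckb), use phosphocreatine to restore ATP. The B subunit predominates in the fetal heart and the brain, and the M subunit in adult striated muscle. Heart muscle takes up its creatine from blood through Slc6a8, whereas Gatm (arginine:glycine amidinotransferase) and Gamt (guanidinoacetate methyltransferase) perform the successive steps of creatine synthesis, mainly in kidney and liver. Ak1 regenerates ATP from ADP, and myoglobin binds oxygen in muscle fibers.

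In the mild line, 2 of the 9 genes changed, Slc6a8 and Ckb, and both rose (adjusted p under 0.05 in limma). This was 22.2% of the members, where 3.55% of all features changed and 1.62% rose. All features include dim features and features without a symbol, here and below. In the severe line, 4 genes changed (44.4% of the members), where 3.30% of all features changed, 1.75% rose and 1.56% fell. Ckb, Gamt and Slc6a8 were the genes that rose and Ak1 the gene that fell. The direction of calls in the severe line depended on the scaling of the arrays. With a common median in place of quantile normalization, 2 members rose (Ckb and Gamt) and 3 fell (Ak1, Ckm and Ckmt2), while over all features 270 rose and 857 fell, against 539 and 480 before. The arrays of wild type and transgenic hearts did not overlap for these same 2 genes in the mild line (7.52% of all features did not overlap) and for these same 4 genes in the severe line (7.21%). By the stricter rule of the study's methods, which asks for a 2-fold change and accepts a raw p under 0.001 in place of the adjusted p, Ckb in the severe line was the sole call (0.136% of all features passed it there and 0.269% in the mild line). The median log2 fold change of the 9 genes was 0.044 in the mild line, where that of all features was 2.5e-05, and -0.051 in the severe line, where that of all features was -4.5e-04. In whole hearts, fewer cells of a type cannot be told apart from less RNA per cell.

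**Figure D1:**
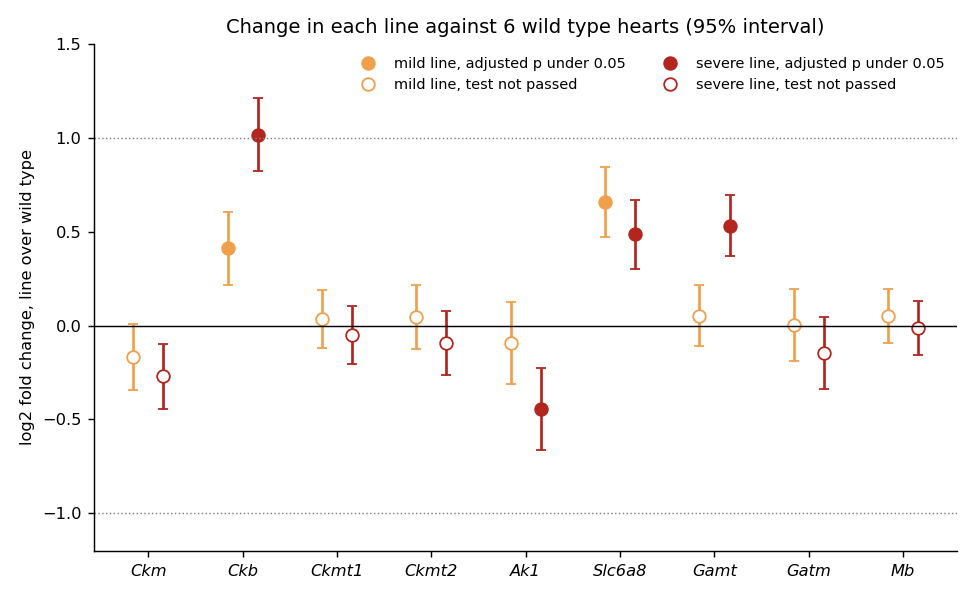
Log2 fold change of each of the 9 genes over 6 wild type hearts in the mild line (orange) and the severe line (red), with bars for the 95% interval and filled points for an adjusted p under 0.05; dotted lines mark a 2-fold change. Ckb in the severe line (1.02) is the point farthest from 0, while Mb and Ckmt1 lie near 0 in both lines.

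All values below are log2 of normalized signal unless raw intensity or a marker sum is named. Marker sums add normalized signal off the log2 scale, so the brightest probes weigh most in them. Apart from these sums, signals of different probes are not compared as levels, because probes differ in brightness. As a guide to background, the median of all features was 6.28 on this scale, and 386 features had a mean above 12. The median raw intensity of an array lay between 102.8 and 118.8, and the 3 severe line arrays held the highest medians (116.2 to 118.8). The markers of cardiac muscle bore out the labelled tissue. Of 7 such genes 6 were measured, and each lay above the median of all features in every group.

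Ckb, the B subunit, showed the largest difference from wild type of the 9 genes, in the severe line. Its signal was 12.34, 12.20 and 12.18 in the mild line littermates and 12.47, 12.45 and 12.56 in the severe line littermates. The mild line gave 12.91, 12.84 and 12.59, and the severe line gave 13.48, 13.28 and 13.40. Every transgenic heart was above every wild type heart, and every severe line heart was above every mild line heart. Ckb rose 2.02-fold in the severe line (log2 fold change 1.02 ± 0.093 SE, n = 3 against 6, adjusted p = 2.0e-06 in limma) and 1.33-fold in the mild line (0.41 ± 0.093 SE, n = 3 against 6, adjusted p = 0.0143 in limma).

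The mild line value of Ckb leaned on its replicates 1 and 2. Without replicate 1 it was 0.35 with an adjusted p of 0.119 in limma, and without replicate 2 it was 0.38 with an adjusted p of 0.105. The severe line value was called in each of 23 alternative settings, between 0.80 and 1.08. The difference between the lines was 0.61 ± 0.11 (SE, n = 3 against 3, adjusted p = 0.0056 in limma), and 2 of the 9 members were called in that comparison, both higher in the severe line (1.37% of all features were called and 0.771% were higher). It was 0.38 with an adjusted p of 0.145 when arrays were scaled to a common median. The 2 groups of wild type littermates also stood apart for Ckb without overlap, by 0.25 (95% interval 0.059 to 0.44, adjusted p = 0.351 in limma). Ckmt2 was the other member whose littermate groups did not overlap (14.31 to 14.47 against 14.48 to 14.65). For 3 hearts against 3, the share of all features without overlap is not given, here and between the lines. With each line set against its own littermates, Ckb was called in each line, with 0.54 for the mild line (adjusted p = 0.0018 in limma) and 0.89 for the severe line (adjusted p = 1.7e-05), but the difference between these rises was 0.35 and no longer passed the test (adjusted p = 0.502).

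**Figure D2:**
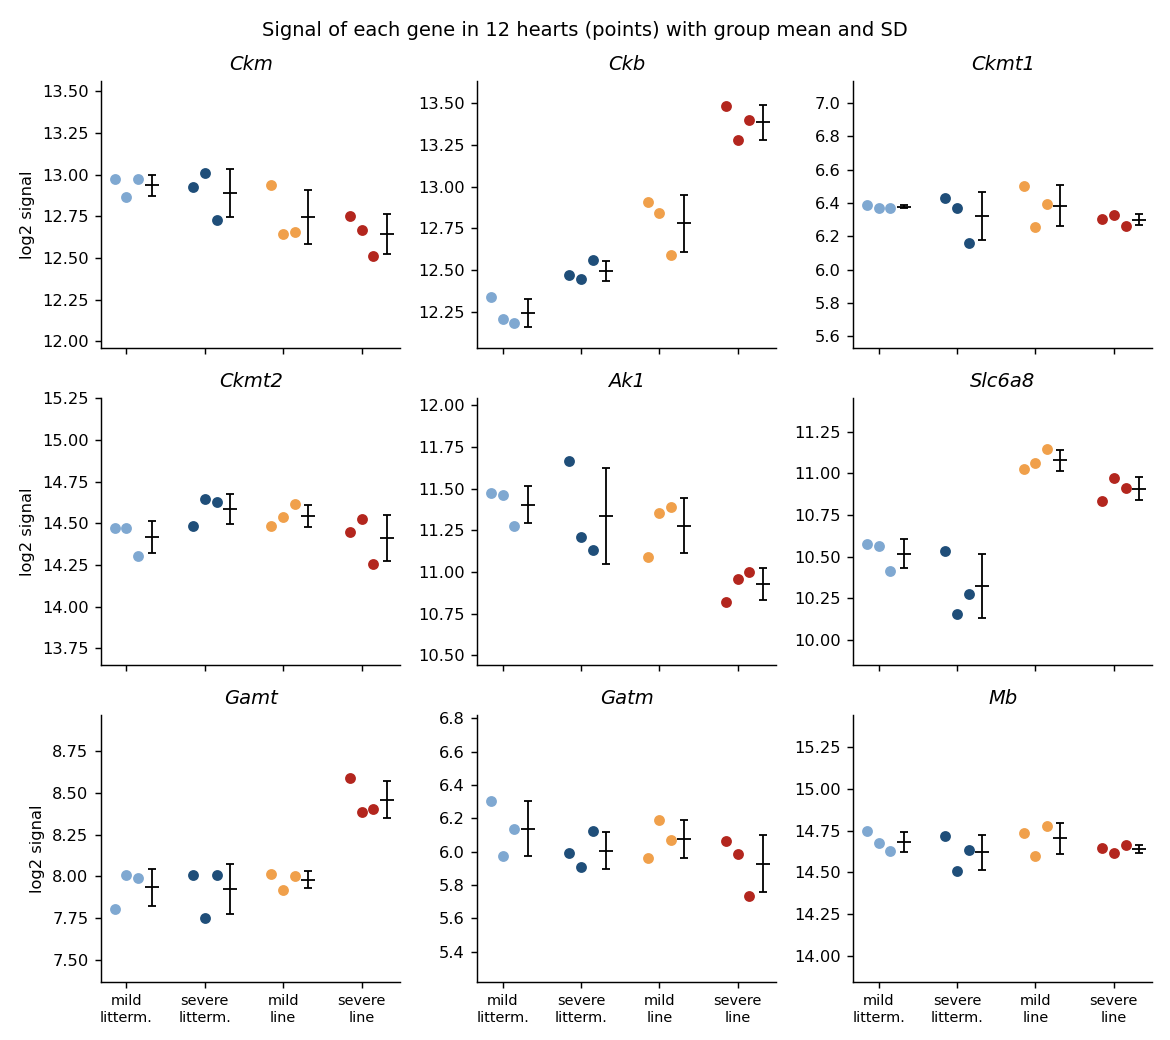
Log2 normalized signal of the 9 genes (a panel each, all axes spanning the same range of log2 units) in the 3 hearts of each group, with horizontal ticks and bars for the group mean ± SD (n = 3). The severe line stands above all other groups for Ckb and Gamt and below them for Ak1, and both lines stand above both wild type groups for Slc6a8.

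Ckm, the M subunit of heart and skeletal muscle, was lower in both lines without passing the test. Its signal was 12.97, 12.86 and 12.97 in the mild line littermates and 12.93, 13.01 and 12.73 in the severe line littermates. The mild line hearts were at 12.93, 12.64 and 12.66, those of the severe line at 12.75, 12.67 and 12.51. Transgenic and wild type hearts overlapped in both comparisons, since mild line replicate 1 (12.93) lay within the range of wild type and severe line littermate 3 (12.73) lay below severe line replicate 1 (12.75). The log2 fold change was -0.27 in the severe line (95% interval -0.45 to -0.096, adjusted p = 0.0966 in limma) and -0.17 in the mild line (95% interval -0.34 to 0.0077, adjusted p = 0.439 in limma). The severe line value passed the test without severe line littermate 3 (-0.31, adjusted p = 0.045) and when arrays were scaled to a common median in place of quantile normalization (-0.44, adjusted p = 0.0155).

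The sequences upstream of Ckb, Ckm and Gamt are shown because Ckb and Gamt rose in the severe line while Ckm, which encodes the partner subunit of Ckb, did not. They are the 250 bases before each RefSeq start on GRCm38.p6, read 5′ to 3′ on the gene's strand, with matches to the motifs below in capitals.
Ckb, chr12:111672339-111672588, minus strand: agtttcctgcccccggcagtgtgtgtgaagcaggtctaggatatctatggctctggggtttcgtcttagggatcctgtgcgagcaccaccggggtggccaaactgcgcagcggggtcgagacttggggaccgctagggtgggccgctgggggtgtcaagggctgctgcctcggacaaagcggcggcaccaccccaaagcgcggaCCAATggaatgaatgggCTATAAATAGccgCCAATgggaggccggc
Ckm, chr7:19410844-19411093, plus strand: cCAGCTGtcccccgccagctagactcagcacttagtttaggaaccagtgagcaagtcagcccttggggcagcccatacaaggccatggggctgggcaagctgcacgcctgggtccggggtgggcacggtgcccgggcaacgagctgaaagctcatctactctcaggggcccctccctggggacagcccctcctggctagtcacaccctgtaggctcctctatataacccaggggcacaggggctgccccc
Gamt, chr10:80261013-80261262, minus strand: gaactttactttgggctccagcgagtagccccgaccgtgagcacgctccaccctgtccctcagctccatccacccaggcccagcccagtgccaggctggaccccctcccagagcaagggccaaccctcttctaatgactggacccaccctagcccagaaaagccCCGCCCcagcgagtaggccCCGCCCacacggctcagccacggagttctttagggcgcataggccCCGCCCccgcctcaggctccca

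Matches were sought on both strands for the E box (CANNTG), the TATA box (TATAAA), the GC box (GGGCGG), the CCAAT box (CCAAT), the CArG box bound by serum response factor, and the MEF2 site. The letters were CCWWWWWWGG for the CArG box and YTAWWWWTAR for the MEF2 site. Here W stands for A or T, Y for C or T and R for A or G. Only these exact letters were counted, not variants such as ccatacaagg and tatataa, both of which occur in the Ckm window. The Ckb window held a TATA box 28 bases before the start that lies within the MEF2 site match beginning at base 29, together with CCAAT boxes at bases 46 and 16. A MEF2 site match occurred in 2.92% of 32841 windows of this length, a TATA box in 12.37% and a CCAAT box in 33.86%. By these exact letters, the Ckm window held only an E box match at its far end, 249 bases before the start. An E box was present in 66.23% of windows. Whether the variants in the Ckm window act as a TATA box or CArG box was not tested. The Gamt window held 3 GC boxes, at bases 86, 67 and 22, where 32.75% of windows held a GC box. A CArG box, present in 1.47% of windows, was found in none of the 14 start windows available for 8 of the 9 genes, which says only that these letters are not in these windows. Slc6a8 had no entry in the promoter table used here.

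The mitochondrial creatine kinases were called in neither line. Ckmt2, the striated muscle form, ranged from 14.31 to 14.65 in the 6 wild type hearts, while mild line hearts lay between 14.48 and 14.61 and severe line hearts between 14.26 and 14.53. For the mild line this gave a log2 fold change of 0.044 (95% interval -0.13 to 0.22, adjusted p = 0.906 in limma), and for the severe line -0.091 (95% interval -0.26 to 0.080, adjusted p = 0.717 in limma). With arrays scaled to a common median, the severe line value became -0.32 and passed the test (adjusted p = 0.0245). Under that scaling the 386 brightest features, to which Ckm, Ckb, Ckmt2 and Mb belong, had a median of -0.19 in the severe line, against -0.016 under quantile normalization.

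Ckmt1, the mitochondrial form of other tissues, gave signals close to the median of all features, with wild type at 6.16 to 6.43, the mild line at 6.26 to 6.50 and the severe line at 6.26 to 6.33. Its log2 fold changes were 0.035 and -0.051 (adjusted p = 0.919 and 0.853 in limma), and a level this close to background bounds no change in its RNA.

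Slc6a8, the route by which heart muscle obtains creatine, rose in both lines. Its signal was 10.57, 10.56 and 10.42 in the mild line littermates and 10.53, 10.16 and 10.28 in the severe line littermates. The mild line reached 11.03, 11.06 and 11.15, and the severe line 10.84, 10.97 and 10.91. No transgenic heart overlapped with wild type, and all mild line hearts were above all severe line hearts. The rise was 1.58-fold in the mild line (0.66 ± 0.088 SE, n = 3 against 6, adjusted p = 9.8e-05 in limma) and 1.40-fold in the severe line (0.49 ± 0.088 SE, n = 3 against 6, adjusted p = 0.0030 in limma).

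The difference between the lines for Slc6a8 did not pass the test (-0.17, 95% interval -0.39 to 0.042, adjusted p = 0.535 in limma). Against own littermates the values for the mild and the severe line were 0.56 and 0.58 (adjusted p = 0.0013 and 0.0014 in limma), and the difference between them was 0.025 (95% interval -0.25 to 0.30). The mild line value was called in all 23 alternative settings, between 0.56 and 0.69. The severe line value fell to 0.32 with an adjusted p of 0.0830 when arrays were scaled to a common median, and was called in the other 22.

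Gamt, which methylates guanidinoacetate to creatine, changed only in the severe line as far as the test reached. Its signal was 7.80, 8.01 and 7.99 in the mild line littermates, 8.01, 7.75 and 8.01 in the severe line littermates, and 8.02, 7.92 and 8.0 in the mild line. In the severe line it was 8.59, 8.39 and 8.41, above each of the 9 other hearts. The rise was 1.45-fold in the severe line (0.53 ± 0.077 SE, n = 3 against 6, adjusted p = 3.6e-04 in limma), and it was called in all 23 alternative settings (0.43 to 0.60). In the mild line the value was 0.052 (95% interval -0.11 to 0.21, adjusted p = 0.876 in limma).

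The difference between the lines was tested directly for Gamt and was 0.48 ± 0.089 (SE, n = 3 against 3, adjusted p = 0.0082 in limma). Without severe line replicate 1 it was 0.42 with an adjusted p of 0.0634, and with each line set against its own littermates it was 0.49 with an adjusted p of 0.2105.

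Gatm, which performs the step before Gamt, had a signal below the median of all features in nearly every heart, with wild type at 5.91 to 6.30, the mild line at 5.96 to 6.19 and the severe line at 5.74 to 6.06. Its log2 fold changes were 0.0019 and -0.14 (adjusted p = 0.997 and 0.553 in limma). The groups overlapped, and no statement on its RNA is made at this signal.

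Ak1, the adenylate kinase of muscle cytosol, fell in the severe line. Its signal was 11.47, 11.46 and 11.28 in the mild line littermates and 11.67, 11.21 and 11.13 in the severe line littermates. Mild line hearts had 11.09, 11.36 and 11.39, and severe line hearts 10.82, 10.96 and 11.00. The severe line hearts lay below all others, the nearest being mild line replicate 1, whereas the mild line overlapped with wild type. Ak1 was 1.36-fold lower in the severe line (-0.44 ± 0.10 SE, n = 3 against 6, adjusted p = 0.0204 in limma), with a mild line value of -0.093 (95% interval -0.31 to 0.12, adjusted p = 0.821).

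The call for Ak1 in the severe line was lost in 5 of 23 alternative settings, while its value stayed between -0.62 and -0.38. The fall did not pass the test against own littermates (-0.41, adjusted p = 0.0990 in limma), without severe line replicate 1 (-0.39, adjusted p = 0.157) or without severe line replicate 2 (-0.46, adjusted p = 0.0538). The difference between the lines was -0.35 and did not pass it either (95% interval -0.60 to -0.10, adjusted p = 0.192 in limma).

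Myoglobin, the oxygen store of heart muscle, was called in neither line. Its signal was 14.75, 14.67 and 14.63 in the mild line littermates and 14.72, 14.51 and 14.63 in the severe line littermates. Mild line hearts had 14.74, 14.60 and 14.78, and severe line hearts 14.65, 14.61 and 14.66. All 4 groups overlapped. The mild line differed from wild type by 0.053 on the log2 scale (95% interval -0.091 to 0.20, adjusted p = 0.856 in limma) and the severe line by -0.011 (95% interval -0.15 to 0.13, adjusted p = 0.973 in limma). On the fold scale, the 95% intervals ran from 0.939 to 1.15 and from 0.899 to 1.10. With arrays scaled to a common median the severe line value was -0.22 (adjusted p = 0.127), which lies outside that interval. Raw Mb intensities were 21469 to 30392 on arrays whose brightest features reached 39798 to 48107, and compression of signal near the top of the scale was not tested.

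None of the 9 genes differed between the 2 groups of littermates with an adjusted p under 0.05 in limma, where 0.0875% of all features did. At an unadjusted p under 0.05, 2 did, Ckb (described above) and Slc6a8 (-0.20, adjusted p = 0.494 in limma). The share of all features at this unadjusted threshold is not given, here and below. With each line set against its own littermates, 2 members were called in the mild line (2.34% of all features) and 3 in the severe line (2.32%), the call lost being that of Ak1. None were called for the difference between the lines taken this way (0.266%), where Ckb, Gamt and Ckmt2 had an unadjusted p under 0.05.

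**Figure D3:**
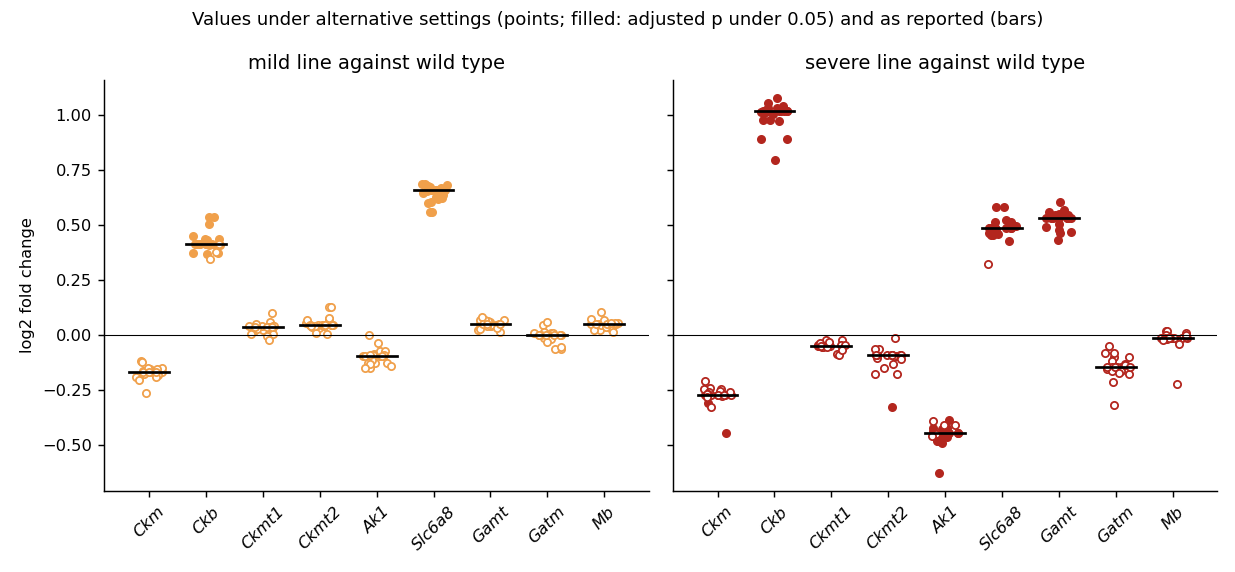
Log2 fold change over wild type of each gene in the mild line (left) and the severe line (right) under the alternative settings (points, filled for an adjusted p under 0.05) and as given in the text (bars). Ckb and Gamt in the severe line and Slc6a8 in the mild line are filled throughout, whereas Ak1, Slc6a8, Ckm and Ckmt2 in the severe line and Ckb in the mild line hold both filled and open points.

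Markers of other cells were read beside these changes. For smooth muscle, 6 of 6 markers were measured and their summed signal was 6786 to 7225 in the mild line littermates and 9261 to 9366 in the severe line littermates. The mild line summed to 5977 to 6161, below every wild type heart, and the severe line to 10198 to 13001, above every wild type heart. Of these markers Acta2 fell in the mild line (-0.55) and Acta2 and Tagln rose in the severe line (0.62 and 0.70), and Cnn1 lay below the median of all features on average. Tagln rose from a wild type mean of 6.30, close to that median. Acta2 carried most of the sum, while Myh11, Smtn and Mylk stood at 0.092, -0.14 and -0.032 for the mild line, and for the severe line at 0.038, -0.071 and -0.037, none of them called. The median of the 6 markers was -0.045 and 0.0018. The part of smooth muscle in the Ckb signal of either line or of the littermates was not tested.

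For nerve and glia, 3 of 5 markers were measured, and their sum was 270 to 291 for the mild line littermates, 292 to 314 for the severe line littermates, 350 to 391 for mild line hearts and 379 to 503 for severe line hearts. Only Uchl1, a neuronal deubiquitinase, was called among them, and it rose in both lines (0.59 and 1.08), while S100b lay below the median of all features. The order of the sums rested on Uchl1, since Mbp, a myelin protein, stood at -0.0093 and -0.16 (adjusted p = 0.979 and 0.285 in limma). The part of nerve and glia in the change of Ckb was not tested.

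Cardiac muscle markers summed to 77968 to 82326 in the mild line littermates, 69881 to 74482 in the severe line littermates, 71510 to 79504 for mild line hearts and 71697 to 77179 for severe line hearts. Pln and Ryr2 fell in both lines and the other 4 measured markers did not pass the test against wild type. For fibroblasts, Col1a1 rose in the severe line (0.48), and the sum over 5 of 5 markers was 7665 to 9241 in wild type hearts, 8541 to 11421 for the mild line and 9635 to 10165 for the severe line. For skeletal muscle, which also expresses Ckm, Ak1 and Mb, 8 of 9 markers were measured, and Tnni2 fell in both lines while Pvalb rose in the mild line. The skeletal muscle sum was 739 to 926 over all hearts, with 3 or 4 of the 8 measured markers below the median of all features in each group. Pvalb rose from a wild type mean of 6.42, close to that median. No marker of endothelium, macrophages, red blood cells, brown adipose tissue, lung or pancreas was called in either line by limma (4 of these genes in each line had an unadjusted p under 0.05). The pancreas sum nevertheless ran from 516 to 3585 in the severe line littermates and from 404 to 502 in the other hearts. That spread rested on Ins2, at 7.27 to 11.64 in the severe line littermates. There, 5 of the 6 measured pancreas markers lay below the median of all features.

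The features whose pattern over the 12 hearts was most like that of Ckb were sought among 12460 features with a single symbol and a signal above the median. They were Fhl1, a LIM domain protein of striated muscle (Pearson r = 0.981), Rab15, a small GTPase (0.975), Tubb2b, a β-tubulin (0.965), Endod1, an endonuclease domain protein (0.963), and P3h2, a prolyl hydroxylase of collagen (0.962). These are descriptions over 12 arrays that share the group differences, and with group means removed the coefficients were 0.834, 0.750, 0.686, 0.509 and 0.533. All 5 rose in both lines, which their choice by correlation with Ckb over these same arrays favors. In this order their log2 fold changes were 0.46, 0.48, 0.34, 0.29 and 0.45 for the mild line, while the severe line had 1.02, 1.63, 0.80, 0.69 and 1.52.

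**Figure D4:**
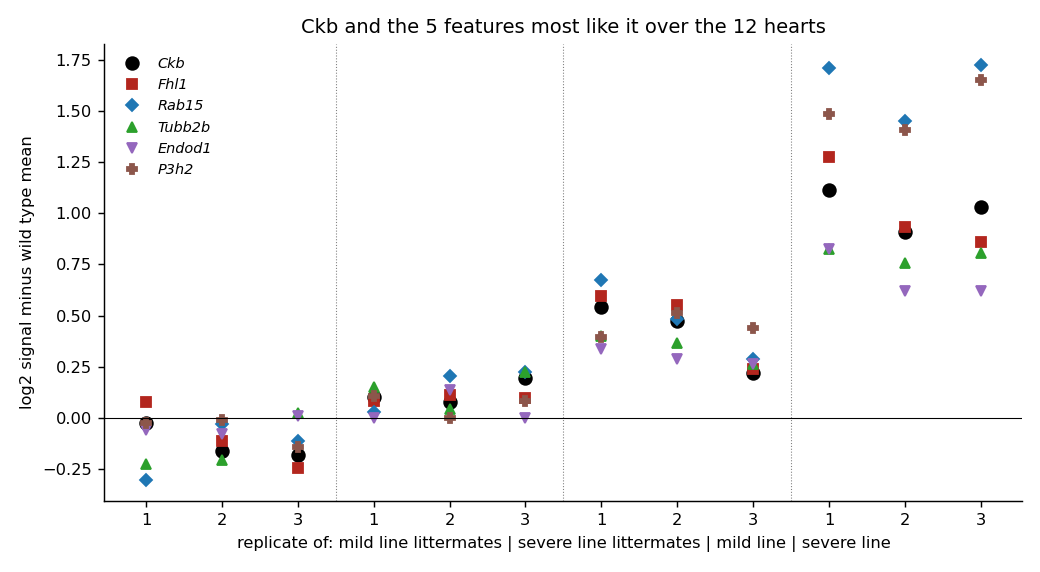
Log2 signal of Ckb (black circles) and the 5 features with the highest correlation to it, as the difference from the mean of the 6 wild type hearts, in each of the 12 hearts by group and replicate. The points are highest in the 3 severe line hearts, intermediate in the mild line and close to 0 in both groups of littermates.

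The wider energy transfer pathway was described by 7 lists of 90 other genes, of which 80 were measured, each read by its brightest feature. The shares of all features given beside them also count dim features and features without a symbol, so they are not a matched base. In the mild line 10 of them changed (4 rose and 6 fell, 12.5%, against 3.55% of all features called and 1.93% that fell), and in the severe line 9 changed (5 rose and 4 fell, 11.25%, against 3.30%). The median log2 fold change of the 80 genes was -0.056 for the mild line, while the severe line gave -0.050. No gene of these lists reached the 2-fold rule in either line. The mild line had 5 calls without its replicate 2 or its replicate 3. In the severe line there were 3 calls without its replicate 1 and 4 without its replicate 3. Leaving out a heart also lowers the power for every feature, and no share of all features is given for these fits. With arrays scaled to a common median, 2 rose and 5 fell in the mild line, whereas 3 rose and 7 fell in the severe line.

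Among 16 measured genes of nucleotide phosphate transfer, 1 rose and 2 fell in each line. The mild line changes were all in the purine nucleotide cycle, which frees ammonia from AMP and rebuilds it. The AMP deaminase Ampd3 fell by 0.68 (adjusted p = 6.8e-04 in limma) and the adenylosuccinate lyase Adsl fell by 0.35 (adjusted p = 0.0206), whereas the muscle adenylosuccinate synthase Adssl1 rose by 0.48 (adjusted p = 2.8e-04). In the severe line Ampd3 fell by 0.42 (adjusted p = 0.0405) and the mitochondrial adenylate kinase Ak3 fell by 0.36 (adjusted p = 0.0345), while the nucleoside diphosphate kinase Nme1 rose by 0.42 (adjusted p = 0.0432). The Adssl1 signal was 11.88 to 12.09 in wild type and 11.80 to 11.96 in severe line hearts, below the 12.37 to 12.53 of mild line hearts.

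Of 9 genes of mitochondrial nucleotide and phosphate exchange, 2 rose in the mild line, and 1 rose and 1 fell in the severe line. Atpif1, the inhibitor of the mitochondrial ATP synthase, rose in both lines, by 0.49 and 0.29 (adjusted p = 6.1e-05 and 0.0120 in limma). The severe line value was 0.073 (adjusted p = 0.720) with arrays scaled to a common median, and the mild line value was 0.22 (adjusted p = 0.0467) when the features of the gene were averaged. The hexokinase Hk1, which binds to the mitochondrial surface, rose by 0.45 in the mild line (adjusted p = 0.0137), and the mitochondrial phosphate carrier Slc25a3 fell by 0.40 in the severe line (adjusted p = 0.0161).

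Of 6 ATPase genes that consume the ATP, 1 rose and 2 fell in the mild line, whereas 2 rose in the severe line. Atp2a2, the calcium pump of the cardiac sarcoplasmic reticulum, fell by 0.50 in the mild line (adjusted p = 5.8e-05 in limma), with signals of 14.31 to 14.43 against 14.80 to 14.95 in wild type and 14.75 to 14.89 in the severe line. Its skeletal muscle relative Atp2a1 fell by 0.35 (adjusted p = 0.0414). The sodium pump subunit Atp1b2 rose in both lines, by 0.33 and 0.85 (adjusted p = 0.0425 and 8.0e-06). The slow myosin heavy chain Myh7 rose by 0.59 in the severe line (adjusted p = 8.4e-04), from a wild type mean of 6.51 close to the median of all features.

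In the remaining lists few genes were called. The list of AMP-activated protein kinase, the sensor of a low energy charge, held 11 genes, including its upstream kinases and their partners. Among them Prkab1 fell by 0.40 in the mild line (adjusted p = 0.0307 in limma). Prkag3 rose by 0.39 in the severe line (adjusted p = 0.0025), again from near the median signal (6.34). Of 18 genes of arginine, glycine and methyl supply, which provide the substrates of Gatm and Gamt, methionine synthase (Mtr) fell in both lines, by 0.75 and 0.42 (adjusted p = 5.6e-05 and 0.0155). None of 10 other globin and oxygen sensing genes were called in either line by limma, although 2 in each line had an unadjusted p under 0.05. Nor were any of 10 transcription factors and coactivators of muscle energy genes, of which 5 (mild) and 2 (severe) had an unadjusted p under 0.05. These unadjusted counts have no share of all features beside them. Of the calls named here, those of Nme1 and Atp2a1 and that of Atp1b2 in the mild line were lost in 14, 13 and 12 of 23 alternative settings, and those of Ak3 and Ampd3 in the severe line in 10 each. Those of Prkab1 (7), Hk1 and Atpif1 in the severe line (6 each), Adsl and Mtr in the severe line (5 each) and Slc25a3 (4) were lost in fewer. The value of Ak3 came down to -0.16 when its features were averaged, and that of Nme1 to 0.23 with a common median.

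**Figure D5:**
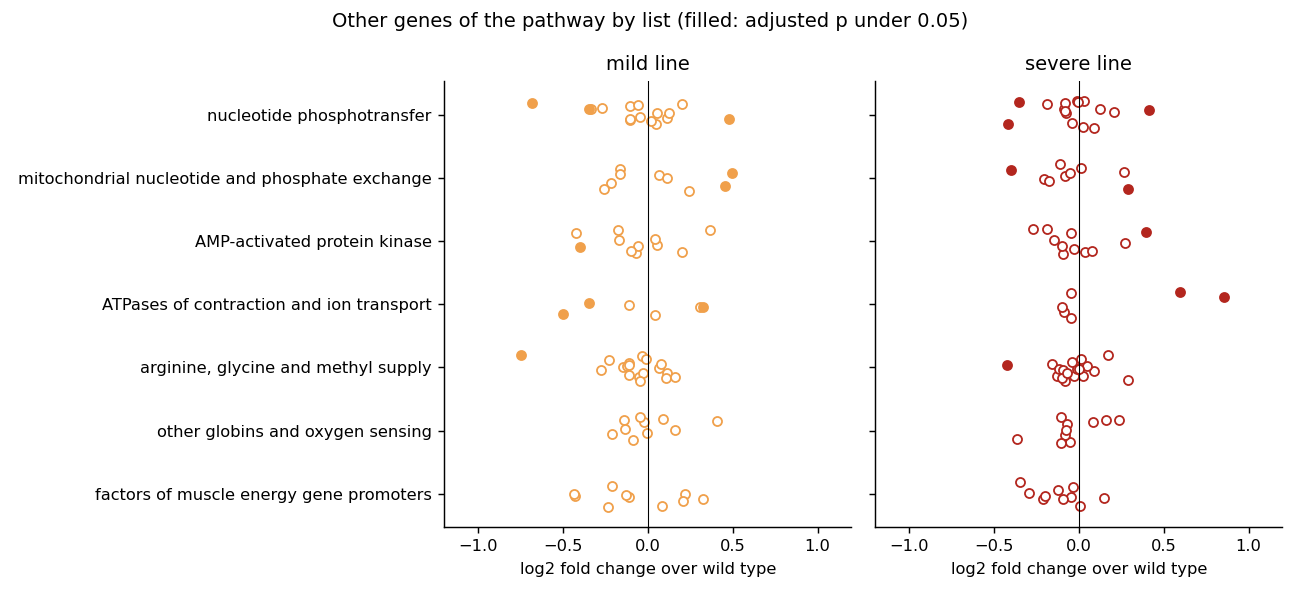
Log2 fold change over wild type of the 80 measured genes of the 7 pathway lists (rows) in the mild line (left) and the severe line (right), each point a gene and filled for an adjusted p under 0.05. Most points lie within 0.5 of 0, and the rows of oxygen sensing genes and of promoter factors hold no filled point.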

How the data were processed

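Total RNA from 12 whole hearts was amplified, labelled and hybridized to Illumina MouseWG-6 v2.0 bead arrays by the authors. They deposited the summarized bead intensity of each probe per array, not normalized, and a table of log2 values, which per the study's methods were background corrected and quantile normalized. Their processing notes name GenomeStudio and limma, with versions not given in the sources used here. The files hold no detection p-values, and 6 lines without an ID in 3 arrays were left out.

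The deposited intensities were background corrected (normexp, offset 50), quantile normalized and log2 transformed in limma 3.58.1 (R 4.3.3). IDs identical on all 12 arrays were merged into 30854 features. A model with 3 group means (wild type, mild, severe) was fitted to all features, with Benjamini-Hochberg adjustment over all of them, and a change was called at an adjusted p under 0.05. Littermate groups were compared in a model of 4 group means. Precision is limited by the number of arrays. The methods' rule of a 2-fold change was an alternative. Other alternatives were no background correction, an offset of 16, median scaling, the deposited log2 values, a filter on dim features, averaged features, array weights, other variance models, only the groups compared, own littermates, a replicate block and leaving out each array. Code was tested on simulated data.

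Array symbols were updated through RefSeq gene IDs. Of 63 markers and 90 pathway genes, 54 and 80 were matched, and each was read by its brightest feature. Beyond the members, the text names pathway genes called in a line, at most 4 per list and line by size, the 5 features most correlated with Ckb, and markers that moved with a member. The members and lists were chosen with earlier results of these data known.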

Additional observations from a re-analysis of the deposited data

Results flagged for a closer look

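The difference between the lines, severe minus mild on the log2 scale, passed the test for 5 of the 24 named members and pathway genes. Of all features 1.37% were called in that comparison, and of the 80 measured pathway genes 3.75%. The pathway genes were named for a call in a line in these same data, which favors a difference between the lines. The difference was 0.61 for Ckb and 0.48 for Gamt, both described above. It was -0.56 for Adssl1, which rose in the mild line only as far as the test reached, 0.46 for Atp2a2, which fell in the mild line, and 0.53 for Atp1b2, which rose in both.

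Among 24 named features, 3 had a wild type heart that stood apart from the other 5 by its gap over the range of the 6, which chance gives in about 5% of groups. Ckmt1 was lower in severe line littermate 3 (6.16, against 6.37 to 6.43, ratio 0.774). Ampd3 was higher in severe line littermate 2 (9.71, against 9.04 to 9.27, ratio 0.655). Atp1b2 was higher in severe line littermate 1 (7.59, against 7.21 to 7.32, ratio 0.700). These were different hearts.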

How the results depend on the processing

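Under the 2-fold rule, 0 members were called in the mild line, 1 in the severe line and 0 between the lines, and 0 pathway genes in each line. With an offset of 16, 1 member was called in the mild line and 0 between the lines, with 5 pathway genes in the mild and 3 in the severe line; the calls for Ckb in the mild line (adjusted p = 0.0909) and Ak1 in the severe line (adjusted p = 0.101) ended, and the cause was not tested. Median scaling left 1 member between the lines. No share of all features is given for the counts under an offset of 16, the block or single arrays left out. Leaving out single arrays gave 1 to 2 members in the mild line and 1 to 2 between the lines (1 without severe line replicate 1), 5 to 12 pathway genes in the mild line (5 without mild line replicate 2 or 3) and 3 to 9 in the severe line (3 without severe line replicate 1, 4 without replicate 3).

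Against own littermates, 0 members differed between the lines. Replicate numbers were not shown to pair the hearts, as same-numbered hearts of a line and its littermates had correlations of deviations from -0.24 to 0.056. With the replicate number as a block, 0 members differed between the lines and 4 pathway genes were called in the severe line, and Ak1 in the severe line had an adjusted p of 0.187. Values that changed sign passed the test in no setting. Against own littermates, with and without the replicate block, Gatm in the mild line was -0.064, Mb in the severe line 0.020 and Slc6a8 between the lines 0.025. With single arrays left out, the mild line values ranged from -0.056 to 0.059 for Gatm, from -0.024 to 0.100 for Ckmt1 and from -0.15 to 0.0010 for Ak1, and Mb in the severe line ranged from -0.039 to 0.0079. Without detection p-values, no feature near the median signal can be called undetected. A chip block was not run because the headers used here give no chip.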
